A study of Mus musculus with 8 samples.

Results

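Prostaglandins and leukotrienes are short-lived lipid signals made from arachidonic acid, and 10 genes of their synthesis, breakdown and reception were followed in intestinal tumor and in small intestine of Apc mutant mice. The 10 genes (Ptgs1, Ptgs2, Ptges, Hpgds, Hpgd, Ptger2, Ptger3, Ptger4, Alox5 and Alox5ap) were chosen as a list of symbols, and all 10 were found among the 43629 genes of the count table. Polyadenylated RNA was sequenced from 4 tumor libraries and 4 small intestine libraries. Both groups carry the label APC mutant as genotype, C57B6/129 as strain and none as treatment, so that the Apc mutation is shared by both groups and no wild-type library is included. The allele of Apc, the age of the mice and whether libraries came from separate animals were not given in the sources used here. Each p-value therefore reflects the spread among these libraries alone, which may be technical.

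In this pathway, phospholipases free arachidonic acid from membranes, and the cyclooxygenases encoded by Ptgs1 and Ptgs2 turn it into prostaglandin H. Terminal synthases then make the single prostanoids, among them prostaglandin E, which acts through receptors encoded by Ptger1 to Ptger4 and is inactivated by 15-hydroxyprostaglandin dehydrogenase, the product of Hpgd. In a separate branch, 5-lipoxygenase (Alox5), helped by its activating protein (Alox5ap), starts the synthesis of leukotrienes, which draw and activate leukocytes. In the gut, prostaglandin E from cyclooxygenases is known to support epithelial repair and the growth of adenomas, and loss of Ptgs2 is known to lower polyp numbers in Apc mutant mice.

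Most genes differed between the tissues, so each count of the 10 genes is read against that background. Gene-assigned counts ran from 53856561 to 84433335 per library. Levels are given as CPM (counts scaled to library size, corrected by the trimmed mean of M values, TMM) for comparisons of a gene between libraries, and as FPKM (fragments scaled to gene length and library depth) for comparisons between genes. Of 17029 genes tested with edgeR's quasi-likelihood test, 74.3% passed a Benjamini-Hochberg adjusted p of 0.05, 38.9% higher and 35.4% lower in tumor. Of the 10 genes, 6 passed (5 higher and 1 lower in tumor), a share near that background, and the median log2 fold change was 0.48 against 0.07 for all genes tested. For 6 of the 10 genes the CPM ranges of tumor and small intestine were separate, against 70.5% of all genes tested. Library totals without the composition correction shift the median log2 fold change of all genes by 0.86 and call 10564 genes higher and 2996 lower in place of 6619 and 6030, that is 79.6% of genes called, 62.0% higher and 17.6% lower. On that scale 5 of the 10 genes were again called higher and 1 lower. From FPKM values, limma called 82.7% of 12849 genes, 64.6% higher and 18.1% lower. The labelled tissue was checked against enterocyte markers, whose summed level was 31224 to 41752 CPM in small intestine and 246 to 499 CPM in tumor. Each library is a mixture of cell types, in which fewer cells of a type and less RNA per cell cannot be told apart.

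**Figure D1:**
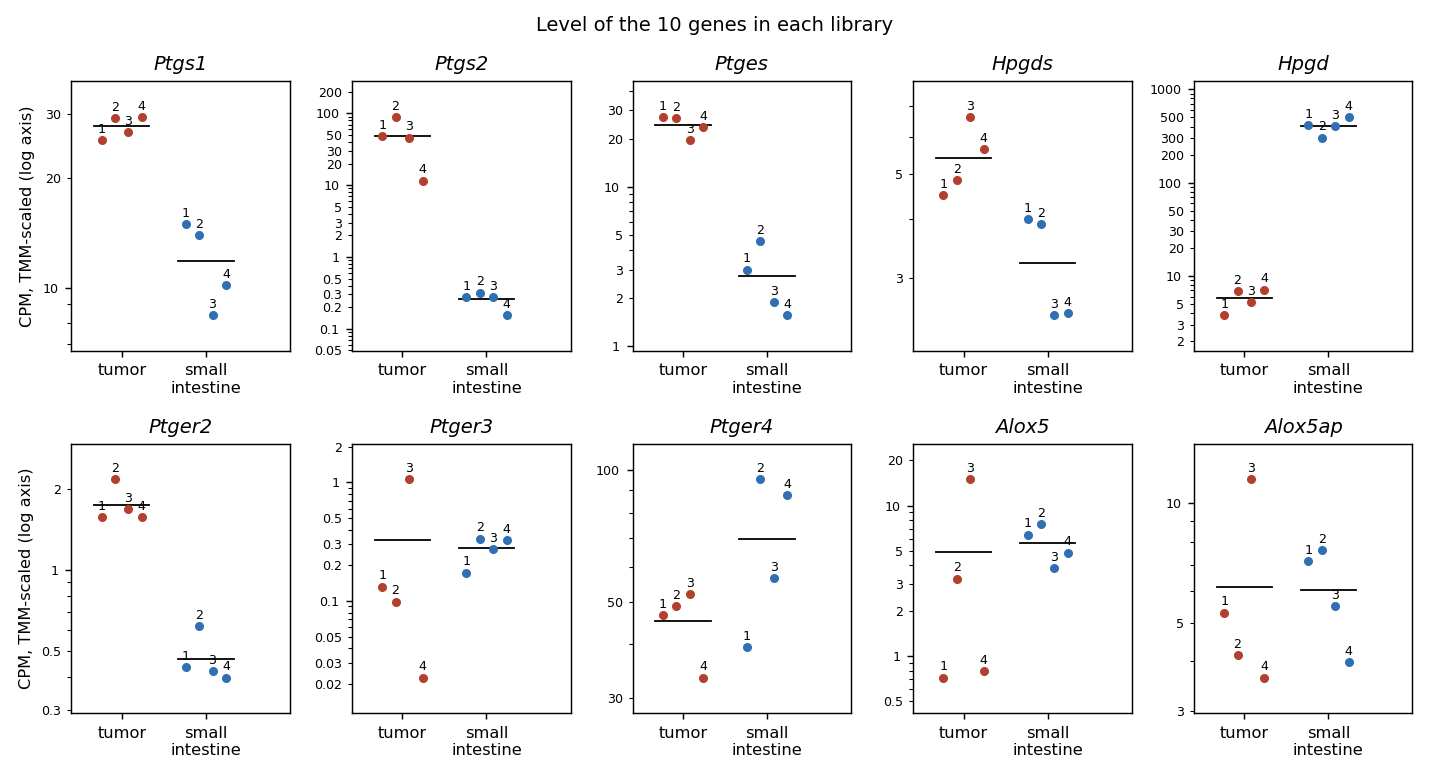
TMM-scaled CPM (log axis, different range in each panel) of the 10 genes in 4 tumor and 4 small intestine libraries; points are libraries, numbers are replicates and lines are group means. Ptgs1, Ptgs2, Ptges, Hpgds and Ptger2 sit higher in tumor and Hpgd lower with no overlap, while the groups overlap for Ptger3, Ptger4, Alox5 and Alox5ap.

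The cyclooxygenases both rose in tumor, but by very different amounts. Ptgs2 encodes the inducible cyclooxygenase-2 and lies on chromosome 1 from 150100031 to 150108227 (GRCm38, plus strand, protein-coding, ENSMUSG00000032487). Its level was 48.6, 89.9, 45.9 and 11.6 CPM in tumor replicates 1 to 4, and 0.278, 0.318, 0.273 and 0.155 CPM in small intestine replicates 1 to 4. All 4 tumor libraries lay above all 4 small intestine libraries, with tumor replicate 2 the highest and tumor replicate 4 far below the other tumor libraries. The small intestine values rest on 9 to 18 counts per library, against 1025 to 7260 in tumor. This gave a log2 fold change of 7.57 ± 0.68 (SE; edgeR adjusted p = 7.36e-06), and 253 of the 17029 genes tested had a rise at least as large. Without tumor replicate 4 it was 7.94, and without tumor replicate 2 it was 7.14.

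Ptgs1 encodes the constitutive cyclooxygenase-1 and lies on chromosome 2 from 36230426 to 36252272 (plus strand, ENSMUSG00000047250). It was at 25.4, 29.2, 26.6 and 29.4 CPM in the tumor replicates and at 14.9, 14.0, 8.42 and 10.1 CPM in the small intestine replicates. The tumor libraries were close together and did not overlap with small intestine, where replicates 3 and 4 were lower than 1 and 2. On the log2 scale the rise was 1.22 ± 0.18 (edgeR adjusted p = 0.000215). As a share of the summed FPKM of both cyclooxygenases, which does not depend on the scaling between libraries, Ptgs2 made up 58.2%, 68.0%, 54.9% and 21.7% in the tumor replicates and 1.53%, 1.85%, 2.82% and 1.65% in the small intestine replicates. Ptgs2 was thus the more abundant cyclooxygenase transcript per length in 3 of 4 tumor libraries, Ptgs1 in tumor replicate 4 and in each small intestine library.

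Of the terminal synthases, Ptges rose more than Hpgds. Ptges, on chromosome 2 from 30889471 to 30929863 (minus strand, ENSMUSG00000050737), encodes the microsomal prostaglandin E synthase that is often induced along with cyclooxygenase-2. Its levels were 27.4, 26.9, 19.5 and 23.7 CPM in the tumor replicates and 3.02, 4.54, 1.89 and 1.57 CPM in the small intestine replicates. Its log2 rise of 3.14 ± 0.33 came with no overlap between the groups (edgeR adjusted p = 2.02e-05). Tumor replicate 4, the tumor library with the least Ptgs2, had a Ptges level within the range of the other tumor libraries. Hpgds, on chromosome 6 from 65117293 to 65144908 (minus strand, ENSMUSG00000029919), encodes the hematopoietic prostaglandin D synthase, found in mast cells, macrophages and tuft cells. It was at 4.51, 4.85, 6.63 and 5.65 CPM in tumor, against 4.01, 3.91, 2.50 and 2.52 CPM in small intestine, and the lowest tumor library stood only slightly above the highest small intestine library. Its log2 fold change of 0.74 ± 0.24 (edgeR adjusted p = 0.0184) was smaller than the 0.86 by which the scalings differ, but the direction was the same without composition correction (edgeR adjusted p = 0.000316).

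Hpgd showed the reverse pattern. The gene lies on chromosome 8 from 56294585 to 56321043 (plus strand, ENSMUSG00000031613). In small intestine it was at 415, 304, 402 and 510 CPM in replicates 1 to 4, and in tumor at 3.82, 6.91, 5.28 and 7.16 CPM. The lowest small intestine library was many times above the highest tumor library, and the spread within each group was below 2-fold. The log2 fold change was -6.14 ± 0.27 (edgeR adjusted p = 1.24e-07), and 222 of the 17029 genes had a fall at least as large. Without composition correction it was -5.27. All 9 enterocyte markers fell (median log2 fold change -7.18), where 35.4% of all genes fell. Of 5 pan-epithelial markers 4 fell and 1 rose, at a summed 5504 to 7667 CPM in tumor against 11794 to 15772 CPM in small intestine, but with library totals 2 were lower, 2 higher and 1 not called, with a median of -0.39 in place of -1.26; their part in the fall of Hpgd was not tested.

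Set against each other within a library, Ptgs2 and Hpgd changed places. In small intestine the FPKM of Hpgd was 3368, 2224, 3412 and 5997 times that of Ptgs2 in replicates 1 to 4. The small intestine ratios rest on 9 to 18 Ptgs2 counts per library, so their size is uncertain. In tumor replicates 1 to 3 Ptgs2 was above Hpgd, by 4.58, 4.73 and 3.18 times, and in tumor replicate 4 it was at 0.588 times Hpgd. As a mean over 4 libraries, the log2 ratio of Ptgs2 to Hpgd was 1.34 ± 1.42 in tumor and -11.78 ± 0.59 in small intestine (SD, n = 4 each). From Ptgs2 and Hpgd counts in place of FPKM, with no length correction, the means were 2.80 and -10.66. By counts Ptgs2 was above Hpgd in tumor replicate 4 too, at 1025 against 635, so the side of that library depends on the measure. These ratios compare transcripts, not enzyme activity or prostaglandin levels, which were not measured in these files.

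**Figure D2:**
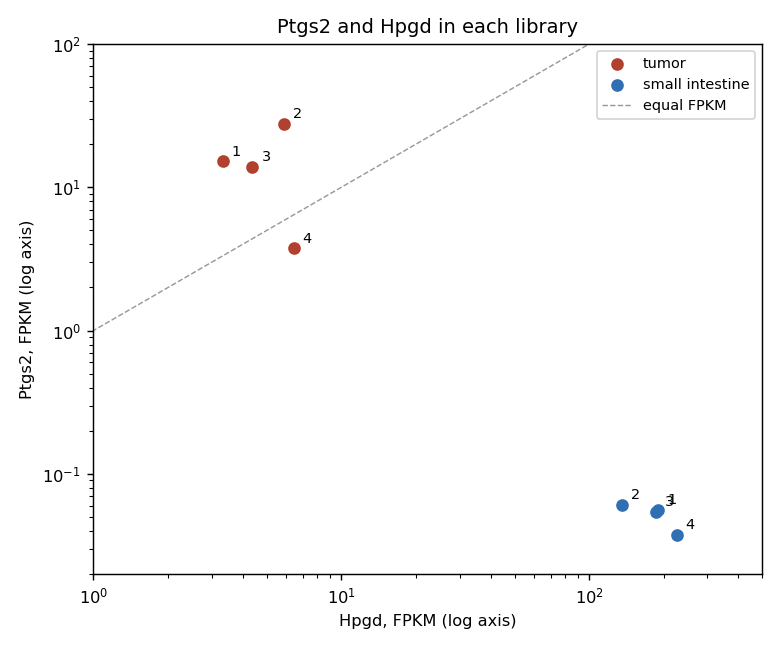
FPKM of Ptgs2 against FPKM of Hpgd (both log axes) in each library; points are libraries, numbers are replicates and the dashed line marks equal FPKM. Tumor replicates 1 to 3 lie above the line and tumor replicate 4 just below it, at 0.588 times Hpgd, while the 4 small intestine libraries lie at the lower right.

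The sequence before the start of these 2 genes is shown because they moved farthest in opposite directions. RefSeq promoter windows (GRCm38.p6, 250 bases before to 50 after the annotated start) were found for 9 of the 10 genes, all except Alox5ap. The first sequence below for each gene is the 250 bases before the start, and the second is the first 30 bases from that RefSeq start. For Hpgd the RefSeq start used here, 56294552, lies before the GENCODE gene start given above, 56294585, so by GENCODE both Hpgd stretches, TATAAA included, lie before the gene. Capitals mark matches to 6 short motifs, on either strand: the E-box CACGTG, the cAMP response element core CGTCA, the palindrome TTGCGCAA bound by C/EBP factors, the Snail and ZEB type E-box CAGGTG, the TATA box TATAAA and the TCF type motif CTTTGAT.
Ptgs2, chr1:150099781-150100030, plus strand: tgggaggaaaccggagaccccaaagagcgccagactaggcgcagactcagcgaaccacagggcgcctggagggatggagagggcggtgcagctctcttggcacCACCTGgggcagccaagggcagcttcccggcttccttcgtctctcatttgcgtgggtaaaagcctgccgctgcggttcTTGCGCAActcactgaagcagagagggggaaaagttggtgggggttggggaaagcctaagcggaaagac
Ptgs2, chr1:150100031-150100060, plus strand: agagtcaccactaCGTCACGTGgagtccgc
Hpgd, chr8:56294302-56294551, plus strand: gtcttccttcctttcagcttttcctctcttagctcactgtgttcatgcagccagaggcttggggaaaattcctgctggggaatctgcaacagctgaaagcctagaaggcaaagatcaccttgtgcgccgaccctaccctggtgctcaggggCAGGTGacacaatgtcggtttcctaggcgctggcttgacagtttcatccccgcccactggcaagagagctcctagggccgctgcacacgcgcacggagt
Hpgd, chr8:56294552-56294581, plus strand: gggcTATAAAagctgctgcggcgtccagac
The Ptgs2 window held CGTCA and CACGTG, which overlap there in CGTCACGTG, as well as TTGCGCAA and CAGGTG, and the Hpgd window held CAGGTG and TATAAA. Among the 9 windows the first 3 of these motifs were found in that of Ptgs2 alone, and CAGGTG also in those of Ptger3 and Hpgds. Over all 32851 windows of the same length, CACGTG was present in 7.15%, CGTCA in 20.8%, TTGCGCAA in 0.183%, CAGGTG in 20.2%, TATAAA in 13.6% and CTTTGAT in 3.73%. The motifs were chosen with the sequences in view, and a match is a description of letters, not evidence of binding.

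The receptors of prostaglandin E differed in what they did. Ptger2, on chromosome 14 from 44988195 to 45003820 (plus strand, ENSMUSG00000037759), encodes EP2, which raises cyclic AMP. It was at 1.58, 2.18, 1.69 and 1.58 CPM in tumor, against 0.434, 0.619, 0.420 and 0.397 CPM in small intestine, with no overlap. EdgeR gave a log2 rise of 1.90 ± 0.26 (adjusted p = 0.000125), from 121 to 176 counts per tumor library and 20 to 35 per small intestine library. Exons of Ptger2 overlap on the opposite strand with those of Gm17173, which held 0 to 2 counts per tumor library and 1 to 8 per small intestine library.

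Ptger4, on chromosome 15 from 5206661 to 5244187 (minus strand, ENSMUSG00000039942), encodes EP4, the other receptor of this set that raises cyclic AMP. Its level was 46.6, 48.8, 52.1 and 33.4 CPM in tumor, against 39.3, 95.4, 56.7 and 87.7 CPM in small intestine. The groups overlapped, since small intestine replicate 1 was lower than 3 of the tumor libraries. The log2 fold change of -0.63 ± 0.27 did not pass (edgeR adjusted p = 0.0579), passed without small intestine replicate 1 (-0.83, edgeR adjusted p = 0.00732) and turned to 0.26 without composition correction (edgeR adjusted p = 0.348). Exons of Ptger4 overlap on the opposite strand with those of Ttc33, which held 808 to 2112 counts per library, and with the strand setting not known the reads of the overlap cannot be told apart. Even so, Ptger4 stood above Ptger2 in FPKM in each library, at 12.9 to 19.4 FPKM against 0.631 to 0.889 in tumor and 7.90 to 19.2 against 0.0787 to 0.132 in small intestine.

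Ptger3, on chromosome 3 from 157566892 to 157645888 (plus strand, ENSMUSG00000040016), encodes EP3, which lowers cyclic AMP. It held 12, 8, 76 and 2 counts in the tumor replicates, that is 0.132, 0.0990, 1.06 and 0.0226 CPM, and 10, 19, 13 and 19 counts in the small intestine replicates, that is 0.174, 0.336, 0.273 and 0.328 CPM. Tumor replicate 3 was above all other libraries and the other 3 tumor libraries were below all small intestine libraries. The log2 fold change over all libraries was 0.22 ± 0.93 (edgeR adjusted p = 0.839), and without tumor replicate 3 it was -1.65 ± 0.58 (edgeR adjusted p = 0.0320). A library at 2 counts is below the floor of 3 counts, here 0.0338 CPM, so the level of that library is uncertain.

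The 5-lipoxygenase genes did not pass the test, and a single tumor library stood apart. Alox5 lies on chromosome 6 from 116410077 to 116461178 (minus strand, ENSMUSG00000025701). It was at 0.717, 3.27, 14.9 and 0.789 CPM in the tumor replicates and 6.41, 7.50, 3.84 and 4.86 CPM in the small intestine replicates. Tumor replicate 3 was the highest of all 8 libraries, and the other 3 tumor libraries were below all small intestine libraries. Over all 8 libraries the log2 fold change was -0.20 ± 0.86 (edgeR adjusted p = 0.838), and without tumor replicate 3 it was -1.79 ± 0.58 (edgeR adjusted p = 0.0223).

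Alox5ap lies on chromosome 5 from 149264767 to 149288153 (plus strand, ENSMUSG00000060063), and its product hands arachidonic acid to 5-lipoxygenase. Its levels in tumor were 5.31, 4.16, 11.5 and 3.64 CPM, against 7.13, 7.62, 5.50 and 3.98 CPM in small intestine. The groups overlapped, again with tumor replicate 3 the highest library. Here the log2 fold change was 0.02 ± 0.38 (edgeR adjusted p = 0.968), and -0.44 ± 0.28 without tumor replicate 3 (edgeR adjusted p = 0.201). Per length, Alox5ap was above Alox5 in each library, at 5.82 to 17.1 against 0.408 to 5.63 FPKM in tumor and a mean of 5.26 against 1.46 FPKM in small intestine.

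Mast cell markers were, like these genes, highest in tumor replicate 3. Their summed level was 78.5, 366, 1981 and 125 CPM in tumor replicates 1 to 4, against 19.2 to 22.2 CPM in small intestine, and 8 of 9 markers were highest among tumor libraries in replicate 3. The exception was Kit, highest in tumor replicate 4, which at 14.1 to 18.2 CPM makes up most of the small intestine sum. The order of the tumor libraries was 3, 2, 4 and 1 both in the summed mast cell markers and in Alox5, whereas it was 3, 1, 2 and 4 in Alox5ap and Ptger3. Tumor replicates 1, 2 and 4 were above each small intestine library in mast cell markers but below each of them in Alox5 and Ptger3. Tuft cell markers were highest in tumor replicate 3 for 7 of 8 genes, although 5 of 8 fell in tumor, where 35.4% of all genes fell. Their summed level in tumor, 192 to 318 CPM against 71.4 to 108 CPM in small intestine, is mostly Avil, which rose. Macrophage markers were highest in tumor replicate 4 for 6 of 8 genes, and neutrophil markers in tumor replicate 1 for 5 of 7. Among small intestine libraries, replicate 2 was highest for 7 of the 10 eicosanoid genes, for 6 of 6 T cell markers and for 4 of 4 B and plasma cell markers. The part of these cell types in the levels of Alox5, Alox5ap, Ptger3 and Hpgds was not tested.

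**Figure D3:**
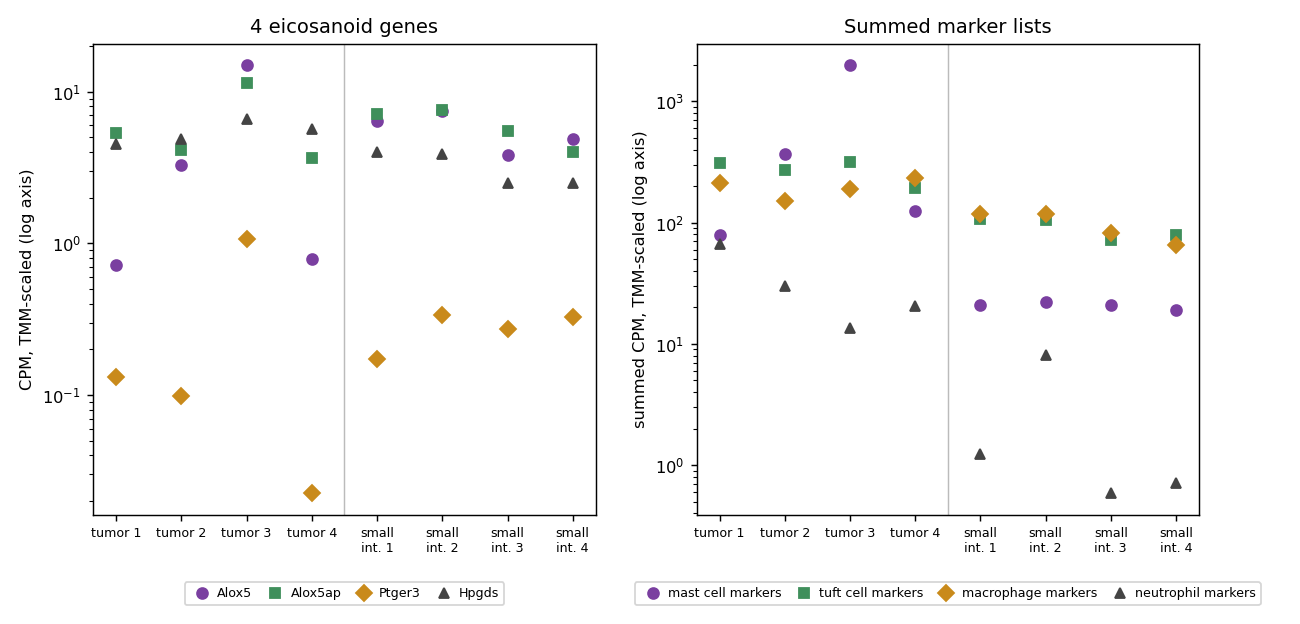
TMM-scaled CPM (log axis) of Alox5, Alox5ap, Ptger3 and Hpgds in each library on the left, and the summed CPM of mast cell, tuft cell, macrophage and neutrophil markers on the right; each point is a library. All 4 genes and the mast cell sum, at 1981 CPM, are highest in tumor replicate 3.

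Fibroblast, endothelial and macrophage markers, which belong to cells that can also make prostaglandins, were, like Ptgs2 and Ptges, higher in tumor. Where 38.9% of all genes rose, fibroblast markers rose in 6 of 7 cases, with a summed 1167 to 1870 CPM in tumor against 22.1 to 68.0 CPM in small intestine. Endothelial markers rose in 5 of 5 and macrophage markers in 7 of 7 tested cases, at a summed 173 to 227 against 7.40 to 23.9 CPM and 150 to 233 against 66.0 to 119 CPM. Neutrophil markers rose in 6 of 6 tested cases, with 13.5 to 66.9 against 0.588 to 8.08 CPM. No marker of the 13 lists was at 0 counts in every library of a group. The tumor library with the lowest Ptgs2, replicate 4, also had the lowest fibroblast sum, but tumor replicate 2, with the highest Ptgs2, had the second lowest. The macrophage and endothelial sums were highest in tumor replicate 4, at 233 and 227 CPM. The macrophage sum was lowest in tumor replicate 2, at 150 CPM, and the endothelial sum in tumor replicate 3, at 173 CPM. The pan-epithelial sum was 7256, 7667, 7505 and 5504 CPM in tumor replicates 1 to 4. It was thus highest in replicate 2 and lowest in replicate 4, as was Ptgs2, but unlike Ptgs2 it was lower in tumor than in small intestine. The part of these cells in the rise of Ptgs2 and Ptges was not tested.

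**Figure D4:**
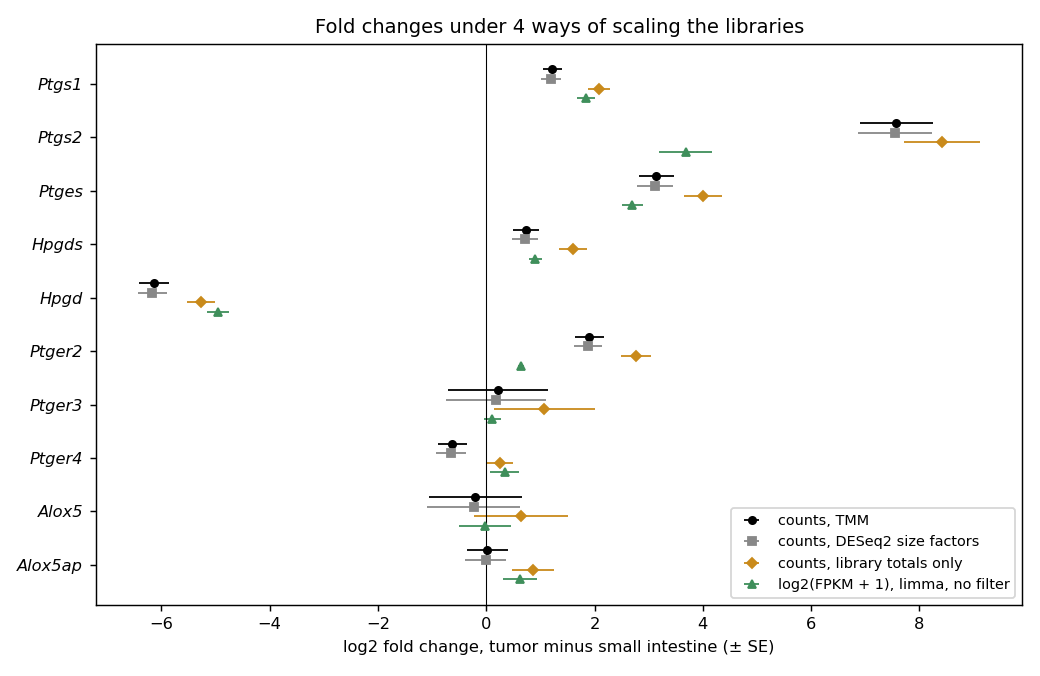
Log2 fold change of each gene, tumor minus small intestine, with SE bars over 4 libraries a group, under 4 scalings: TMM, DESeq2 size factors, library totals, and log2(FPKM + 1), a scale that understates low genes such as Ptgs2 and Ptger2. The 6 called genes keep their side of 0 under each of the 4, while Ptger4, Alox5 and Alox5ap fall on both sides.

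Ranked per length within a tissue, the order of the 10 genes changed. In small intestine Hpgd came first at 184 ± 36.8 FPKM, followed by Ptger4 (13.8 ± 5.02), Alox5ap (5.26 ± 0.974) and Ptgs1 (2.75 ± 0.823), each separated from the next over the 4 libraries except Ptgs1, whose range overlapped with that of Alox5 (1.46 ± 0.567). Ptgs2 came last there, at 0.0523 ± 0.0102 FPKM (SD, n = 4). In tumor Ptger4 (17.0 ± 2.88), Ptgs2 (15.2 ± 9.82), Ptgs1 (12.3 ± 1.26), Alox5ap (9.35 ± 5.27) and Ptges (9.33 ± 1.86) led, and the range of each overlapped with that of the next. Hpgd came next at 3.33 to 6.41 FPKM, separate from Ptges above it and from Hpgds (2.27 ± 0.466) below it.

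The wider pathway was taken from 7 lists of 44 further genes, of which 39 were tested. In these lists 17 genes rose and 16 fell, and the median log2 fold change was 0.41, so that 33 of 39 were called against 74.3% of all genes. Library totals gave 20 higher and 12 lower. Of 7 tested genes for the release of arachidonic acid 3 rose and 1 fell, where 38.9% of all genes rose and 35.4% fell. With library totals the counts were 5 and 0, where 62.0% of all genes were higher and 17.6% lower. Pla2g4a, the cytosolic phospholipase A2 that feeds the cyclooxygenases, was at 14.4 ± 4.05 CPM in tumor against 3.67 ± 0.710 CPM in small intestine (SD over 4 libraries), which is 1.97 on the log2 scale. The secreted phospholipase gene Pla2g2a, also among the 3 that rose, showed 3.94. GENCODE types it as a polymorphic pseudogene, and whether its RNA gives a working enzyme was not tested. Pla2g6 stood at -0.33 with TMM (edgeR adjusted p = 0.0393) but at 0.54 without composition correction (edgeR adjusted p = 0.00321), so its direction depends on the scaling.

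Other terminal synthases went both ways, 3 up and 3 down of 7 tested, where 38.9% of all genes rose and 35.4% fell. The thromboxane synthase gene Tbxas1 showed a log2 fold change of 1.30 and Akr1b3, an aldose reductase that can make prostaglandin F, 1.20. Fam213b, which encodes another prostaglandin F synthase, fell from 249 ± 16.5 CPM in small intestine to 9.38 ± 0.695 CPM in tumor, or by 4.73 on the log2 scale. The carbonyl reductase Cbr1, which acts on prostaglandin E, showed -1.53.

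Of the other prostanoid receptors 2 rose and 2 fell of 4 tested, against the same 38.9% and 35.4% of all genes. Ptgir, the receptor for prostacyclin, and Tbxa2r, the receptor for thromboxane, showed log2 fold changes of 2.32 and 1.79, at 1.94 ± 0.397 and 1.95 ± 0.768 CPM in tumor. Ptgdr, a receptor for prostaglandin D, held 1, 2, 6 and 0 counts in the tumor replicates against 81 to 135 in small intestine, and its fitted log2 fold change was -6.20. Ptger1, the remaining prostaglandin E receptor, stood at 23.1 ± 1.16 CPM in tumor against 43.3 ± 3.92 CPM in small intestine, giving a log2 fold change of -0.91 that shrank to -0.04 without composition correction (edgeR adjusted p = 0.698) and stood at 0.08 in the FPKM table (limma adjusted p = 0.422).

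The transport genes moved in opposite directions. Slco2a1 encodes the transporter that takes prostaglandins up for breakdown, and it fell from 341 ± 64.5 CPM in small intestine to 47.6 ± 4.70 CPM in tumor, a log2 fold change of -2.84 ± 0.15 (edgeR adjusted p = 3.69e-07). Abcc4, an exporter that can carry prostaglandin E out of cells, was at 111 ± 8.48 CPM in tumor against 3.23 ± 0.596 CPM in small intestine, giving a log2 fold change of 5.11 ± 0.16 (edgeR adjusted p = 2.89e-08). Ptgr2, a prostaglandin reductase acting after Hpgd, showed -1.21, and the related Ptgr1 0.41 (edgeR adjusted p = 0.0385), a call that was lost when any of 6 libraries (tumor replicates 1 to 3, small intestine replicates 1, 2 and 4) was left out, with values from 0.30 to 0.58 over all 8. Neither Slco2a1 nor Abcc4 overlapped between the groups, and both kept their direction and call under each alternative.

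Of 7 genes that convert leukotrienes 5 fell and 2 rose, where 35.4% of all genes fell and 38.9% rose. Dpep1, a membrane dipeptidase of the brush border that cleaves leukotriene D, was at 14.3 ± 2.83 CPM in tumor against 1644 ± 311 CPM in small intestine, giving a log2 fold change of -6.85. Mgst3, a microsomal glutathione transferase, showed -2.60, whereas the related dipeptidase Dpep2 showed 2.93 and the glutamyl transferase Ggt5 1.44. Of 4 leukotriene receptors 2 fell and 1 rose, against the same shares of all genes. Both leukotriene B receptors fell, Ltb4r2 by 3.96 and Ltb4r1 by 2.86 on the log2 scale. Cysltr1, a receptor for cysteinyl leukotrienes, rose from 0.316 ± 0.0882 CPM in small intestine to 1.61 ± 0.280 CPM in tumor, by 2.34 ± 0.29 on the log2 scale (edgeR adjusted p = 6.43e-05), and Cysltr2 stood at 0.45 (edgeR adjusted p = 0.575). Other lipoxygenases rose in 4 of 5 tested cases and none fell, against the same 38.9% of all genes rising. Alox12, the platelet-type 12-lipoxygenase, held 759 to 1336 counts per tumor library and 3, 1, 5 and 0 counts in the small intestine replicates, and its fitted log2 fold change was 8.26 ± 0.58 (edgeR adjusted p = 1.53e-06). Alox15 was at 3.38 ± 1.23 CPM in tumor against 0.115 ± 0.0968 CPM in small intestine, giving a log2 fold change of 4.86.

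**Figure D5:**
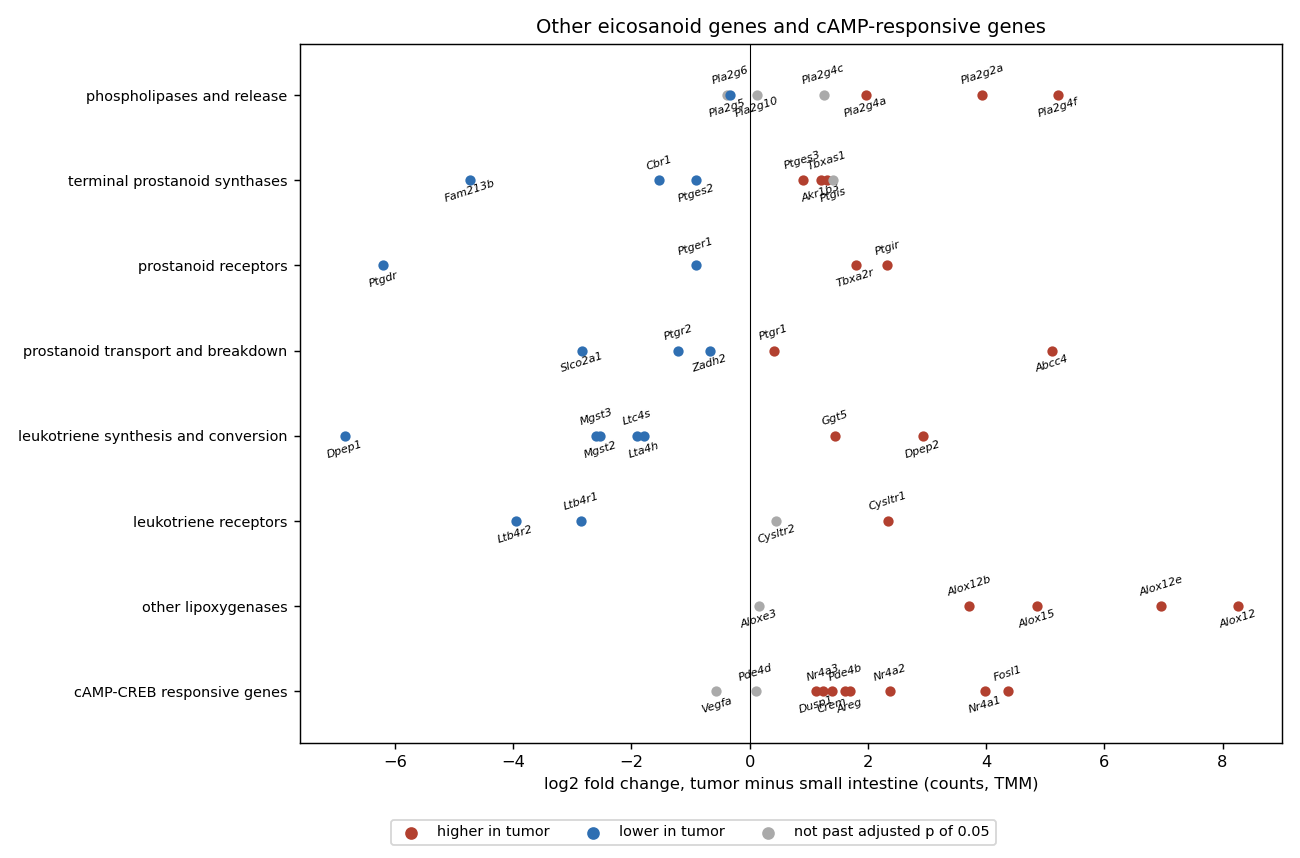
Log2 fold change (counts, TMM) of each tested gene of 7 eicosanoid lists and of cAMP-responsive genes, tumor minus small intestine; points are genes, colored by the edgeR call. Leukotriene conversion lies mostly left of 0, with Dpep1 at -6.85, and other lipoxygenases right of 0, with Alox12 at 8.26.

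Genes that respond to cyclic AMP through CREB, the arm used by EP2 and EP4, rose in 8 of 10 cases and fell in none, where 38.9% of all genes rose. With library totals 9 of 10 were higher, against 62.0% of all genes. The orphan receptor Nr4a1 was at 37.5, 86.4, 41.7 and 17.1 CPM in the tumor replicates, against 1.64 to 4.86 CPM in small intestine, giving a log2 fold change of 3.98 ± 0.55 (edgeR adjusted p = 0.000128). Fosl1, a subunit of the AP-1 factor, was at 7.24, 16.2, 9.41 and 9.96 CPM in tumor, against 0.0840 to 1.14 CPM in small intestine, giving a log2 fold change of 4.37 ± 0.62 (edgeR adjusted p = 0.000162). Tumor replicate 2 was the highest tumor library for 8 of these 10 genes, as for Ptgs2, and tumor replicate 4 the lowest for 7, as for Ptgs2. That order was not particular to them, and the share over all genes is not given here. Tumor replicate 2 was also highest for 4 of 5 pan-epithelial and 6 of 9 enterocyte markers, but for 0 of 8 tuft cell and 0 of 8 macrophage markers. The pan-epithelial sum was lowest in tumor replicate 4, at 5504 CPM. Several of the cAMP-responsive genes are early-response genes that many signals raise, and whether prostaglandin E bore on them was not tested.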

How the data were processed

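Per the labels, polyadenylated RNA of 4 tumor and 4 small intestine libraries was sequenced with standard Illumina procedures. The authors deposited whole-number counts per gene and FPKM values for the same libraries. FastQC, STAR, Cufflinks 2.2.1, HTSeq 0.6.0 and GRCm38 are named in the submitters' processing notes. The annotation release, strand setting and rule for shared reads were not given in the sources used here, so sense and antisense reads of overlapping genes are not separable. Exons of Ptgs1, Ptger2, Ptger4 and Alox5ap overlap with those of genes on the opposite strand. Symbols, positions and gene types come from GENCODE M21 (GRCm38), matched by Ensembl identifier for 42462 of 43629 genes.

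Counts were tested with edgeR 4.0.16 in R 4.3.3 (TMM, filterByExpr, glmQLFit and glmQLFTest, tissue as the only term), with Benjamini-Hochberg adjustment over all 17029 genes and a threshold of 0.05. Standard errors were derived from edgeR's fold change divided by the root of F. FPKM values were tested with limma 3.58.1 on log2(FPKM + 1) at a mean of at least 1 FPKM. DESeq2 1.42.0 was an alternative. The depth of each library puts a floor of 3 counts at 0.0331 to 0.0630 CPM, for counting error only. Libraries of a group all differed beyond sampling noise (lowest chi-square over its degrees of freedom 38.9). The edgeR test was tried on counts simulated for the same libraries (16716 genes, 200 changed, equally up and down). It recovered 43.4% of 2-fold and 83.8% of 4-fold changes with 4.55% false calls. In the real comparison 74.3% of genes were called, so these rates do not describe it.

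The members, lists and tests were chosen with earlier results of these data known, so no p is given over the lists. Named were the 10 genes and, from each wider list, up to 2 called genes with the largest rise and 2 with the largest fall, given a mean level of 1 CPM or above. Cysltr1, Cysltr2 and Avil were named after their values were seen, and promoter motifs likewise. Marker lists are enterocyte, goblet, tuft and pan-epithelial, macrophage, neutrophil, mast cell, eosinophil, T cell, B and plasma cell, fibroblast, smooth muscle and endothelial.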

Additional observations from a re-analysis of the deposited data

Results flagged for a closer look

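In groups of 4 libraries, a library was singled out where its gap to the nearest other took up more of the group's range than Dixon's 95% critical value. Chance gives about 1 in 20 groups, and 4 of 74 were singled out, close to that rate. Ptger3 in tumor replicate 3 was at 1.06 CPM, with the other tumor libraries at 0.132 CPM or lower. Ptger2 in small intestine replicate 2 was at 0.619 CPM, with the other small intestine libraries at 0.434 CPM or lower. Ptger1 in small intestine replicate 3 was at 37.5 CPM, with the others at 44.6 CPM or higher. Dpep2 in tumor replicate 2 was at 3.35 CPM, with the others at 2.50 CPM or lower.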

How the results depend on the processing

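Alternatives were other scalings, filters and tools, the FPKM table, a replicate block and leaving out single libraries. Ptgs1, Ptgs2, Ptges, Hpgd and Ptger2 kept direction and call under every alternative that gave a value. Hpgds lost its call with the replicate number as a block (0.76, edgeR adjusted p = 0.0586). Under that block, which called 11893 genes, Ptger3 stood at -0.77 and Alox5ap at -0.10. Whether same-numbered tumor and small intestine libraries belong together is not known from the labels. Their correlations of deviations from the group means ran from -0.159 to 0.0136, and not every library correlated best with its own number. Between unlike tissues such values cannot show whether the libraries were paired. Without composition correction Ptger4 stood at 0.26, Alox5 at 0.64 and Pla2g6 at 0.54, and with DESeq2 size factors Alox5ap at -0.0074. In the FPKM table Ptger4 stood at 0.34 (0.36 with a pseudocount of 0.1, 0.34 with no filter), Pla2g6 at 0.53 (0.60, 0.53) and Ptger1 at 0.0785 (0.0879, 0.0785), and 9 wider genes were lower (9, and 10 with no filter) in place of 16. From counts in place of FPKM, the mean log2 ratio of Ptgs2 to Hpgd was 2.80 in tumor and -10.66 in small intestine. From FPKM, which divides by length, it was 1.34 and -11.78, so the 2 tissues did not shift by the same amount. The cause of these shifts was not tested.

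With each library left out, log2 fold changes ran from -1.65 to 0.65 for Ptger3, -0.83 to -0.44 for Ptger4, -1.79 to 0.19 for Alox5 and -0.44 to 0.24 for Alox5ap. Members called lower ran from 1 to 3: Alox5 and Ptger3 were added without tumor replicate 3, and Ptger4 without small intestine replicate 1. Of 411 values over the 25 other named genes, 385 kept direction and call, 19 lost the call and 7 turned. Some genes were not tested under some alternatives: Ptger2 and Ptger3 with the FPKM minimum, Ptger3 with the CPM minimum and with DESeq2, which gave it no adjusted p.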

Other observations

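The phospholipase gene Pla2g4c, chosen after its values were seen, varied widely within each tissue. It was at 5.15, 19.0, 265 and 17.0 CPM in tumor replicates 1 to 4 and at 10.5, 108, 3.67 and 5.86 CPM in small intestine replicates 1 to 4. At 1.25 ± 1.37 on the log2 scale the difference did not pass (edgeR adjusted p = 0.428). Summed mast cell markers were also highest in tumor replicate 3, at 1981 CPM. In small intestine replicate 2 they were at 22.2 CPM, of which Kit was 16.1 CPM, against 19.2 to 21.1 CPM in the other small intestine libraries. The part of mast cells was not tested.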
